A study of Homo sapiens with 12 samples.

Results

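The membrane sector and the accessory proteins of the vacuolar proton pump were followed as 10 genes in MDA-MB-231, a long-established human cell line from a triple-negative breast cancer. The genes were taken by symbol from a table of 60649 gene IDs. They are ATP6V0A1, ATP6V0A2 and TCIRG1 (alternative a subunits), ATP6V0B (c″), ATP6V0C (c), ATP6V0D1 (d), ATP6V0E1 and ATP6V0E2 (e), and the accessory proteins ATP6AP1 (Ac45) and ATP6AP2 (the prorenin receptor). RNA was sequenced from 4 groups of 3 libraries. Control cells carried a sham short hairpin RNA, SIRT1 KD cells a hairpin against the NAD-dependent deacetylase SIRT1, IGF2BP2 KD cells a hairpin against the RNA-binding protein IGF2BP2, and double KD cells carried hairpins against both. All 4 groups, control included, had been infected with lentivirus made in HEK-293T cells, with Polybrene at 8 µg/mL, and were held under puromycin at 2.0 µg/mL. The study asked which transcripts depend on each of the targeted proteins. Each group was run 3 independent times, per the series' design text, but whether these were separate infections was not given in the sources used here. Each p-value thus measures only the spread between libraries, which may be technical.

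The v-ATPase uses ATP to pump protons into lysosomes, endosomes and other compartments, and in some cells across the plasma membrane. Its cytosolic V1 sector splits ATP and turns the V0 sector, in which a rotating ring of proteolipid c subunits carries protons past the a subunit. The a subunit exists as several isoforms that direct the pump to different membranes, d couples the ring to the central stalk, and the accessory proteins take part in assembly in the endoplasmic reticulum.

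Reads assigned to genes came to 19522606 to 22509142 in 11 libraries and to 15243152 in double KD replicate 2. This library stood apart from its partners. The SD of its log2 values around its partners' mean was 0.334, against 0.0981 to 0.213 in the other 11, and mitochondrial transcripts took 1.18% of its reads, against 1.99% to 2.57%. The limma results on double KD cells, and the levels per length, isoform shares and profile distances below, are therefore given with and without it where they rest on it. As a check of the labels, SIRT1 spanned 799 to 863 normalised counts in control, 496 to 547 where its hairpin was given alone and 380 to 436 where both were given. In IGF2BP2 KD libraries SIRT1 was at 691 to 763, all below control, a log2 difference of -0.20 that did not pass the test described below (adjusted p = 0.102 in limma; 0.0245 without double KD replicate 2). IGF2BP2 spanned 3045 to 3127 in control, 709 to 841 with its own hairpin alone, 715 to 992 with both, and 3721 to 3791 with the SIRT1 hairpin alone. The last was called higher than control, by 0.29 on the log2 scale (adjusted p = 0.0274 in limma), in 14 of 20 alternative fits too. Of 6 genes typical of this mesenchymal line (VIM, CD44, MSN, AXL, CAV1 and LDHB) all 6 had a mean of 10 or more normalised counts. Of 6 listed as low or absent, ESR1 stayed at or under 7.66 and PGR at or under 0.964, CDH1 at or under 24.1, while ERBB2 was at 2038 to 2550, EPCAM at 134 to 243 and GATA3 at 121 to 221. Of 5 markers of packaging cells, MYCN was at 0 in every library, LIN28B, PAX2 and NEFM did not pass 2.87, and GAL alone had a mean of 10 or more. The packaging list summed to 62.2 to 66.5 normalised counts in control, 54.7 to 75.5 in SIRT1 KD, 31.6 to 41.9 in IGF2BP2 KD libraries and 71.1 to 76.9 in those of the double KD. Of 5 fibroblast markers 4 had a mean of 10 or more and DCN did not pass 4.79, with sums of 709 to 749, 492 to 577, 674 to 713 and 696 to 1153 in the same order, and 5 immune markers summed to at most 27.8. The part of these shifts in the results below was not tested.

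Lysosomal genes often carry the sequence CACGTG near their start sites, the core of the site that the MiT/TFE transcription factors bind. RefSeq promoters (GRCh38.p14, 300 bases, 250 before the start site) were on hand for 9 of the 10 genes, all but ATP6V0E1, and CACGTG, which reads the same on both strands, was found in those of 3: ATP6V0B, ATP6V0D1 and ATP6V0E2. Across all 35116 promoters of that length 7.26% held it, and 0.980% held the longer TCACGTGA, which contains it. These shares count promoters, whereas the 3 are genes, and some of the genes had several promoters. ATP6V0E2 had the match in overlapping promoters and lacked it in another. ATP6V0D1 was the gene of the set with the longer form. The 100 bases just before the start site follow for both genes with a match that changed in the tests below, and for ATP6V0A1, the gene with the widest difference, with matches in capitals. A match is a description of these letters and shows no binding.
ATP6V0B (chr1:43974860-43974959, plus strand): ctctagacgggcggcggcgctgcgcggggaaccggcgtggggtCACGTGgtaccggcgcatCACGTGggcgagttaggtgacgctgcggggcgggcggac
ATP6V0D1 (chr16:67481158-67481257, minus strand): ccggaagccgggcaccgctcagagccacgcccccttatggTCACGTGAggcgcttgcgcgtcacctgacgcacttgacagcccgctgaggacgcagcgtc
ATP6V0A1 (chr17:42458778-42458877, plus strand): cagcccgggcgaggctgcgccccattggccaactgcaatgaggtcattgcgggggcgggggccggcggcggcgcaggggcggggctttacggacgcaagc

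In ATP6V0B the matches began 57 and 39 bases before the start site, and in ATP6V0D1 the capitals began 60 bases before it. ATP6V0A1 had none in its 300 bases. In GENCODE 29 on GRCh38 the genes lie at chromosome 1, 43974487 to 43978295 (ATP6V0B, ENSG00000117410.14), chromosome 16, 67438014 to 67481237 (ATP6V0D1, ENSG00000159720.12) and chromosome 17, 42458844 to 42522611 (ATP6V0A1, ENSG00000033627.17), so each printed stretch overlaps its gene's outermost annotated transcript. The 3′ UTRs of the 10 genes were also searched for CTCAGAT and TCAGATA, a pair of 7-base sequences that earlier results on these data had pointed to. None of the 10 held either, against 19.4% of 19108 protein-coding genes. With 10 genes this difference was not tested, and 3′ UTR length, at most 76 bases in TCIRG1, was not allowed for.

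Levels were first compared between genes per length, as normalised counts per kilobase of annotated exon. The length joins all annotated exons of a gene, from 1498 bases in ATP6V0C to 13729 in ATP6V0A2. Which transcripts the cells expressed was not measured, so the order of genes depends on these lengths. In control cells ATP6V0E1, a small hydrophobic subunit, was highest at 1448 ± 43.4 per kb (SD, n = 3), followed by TCIRG1 at 639 ± 24.4, ATP6V0B at 399 ± 23.6, ATP6AP1 at 304 ± 13.4 and ATP6AP2 at 281 ± 11.9 per kb. ATP6V0D1 at 107 ± 2.68, ATP6V0A1 at 106 ± 5.09, ATP6V0E2 at 69.2 ± 1.75 and ATP6V0A2 at 48.0 ± 3.61 per kb followed. The neighbours ATP6AP1 and ATP6AP2 overlapped between libraries, as did ATP6V0D1 and ATP6V0A1, and the other neighbouring pairs of that order did not. ATP6V0C was last at 4.86 ± 0.901 per kb. In the other groups the order differed in these places. ATP6V0A1 stood sixth in SIRT1 KD cells at 247 ± 5.79 per kb, overlapping ATP6AP2 at 260 ± 15.8, and in IGF2BP2 KD cells ATP6AP1 at 393 ± 20.5 per kb stood above ATP6V0B at 339 ± 18.7 with no overlap. In double KD cells ATP6V0A1 was sixth at 162 ± 10.6 per kb and overlapped ATP6V0D1 at 153 ± 25.3, and ATP6V0B at 357 ± 35.8 overlapped ATP6AP1 at 323 ± 30.2. The order was the same without double KD replicate 2, and ATP6V0A1 (160 to 174 per kb) did not overlap ATP6V0D1 (134 to 144).

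**Figure D1:**
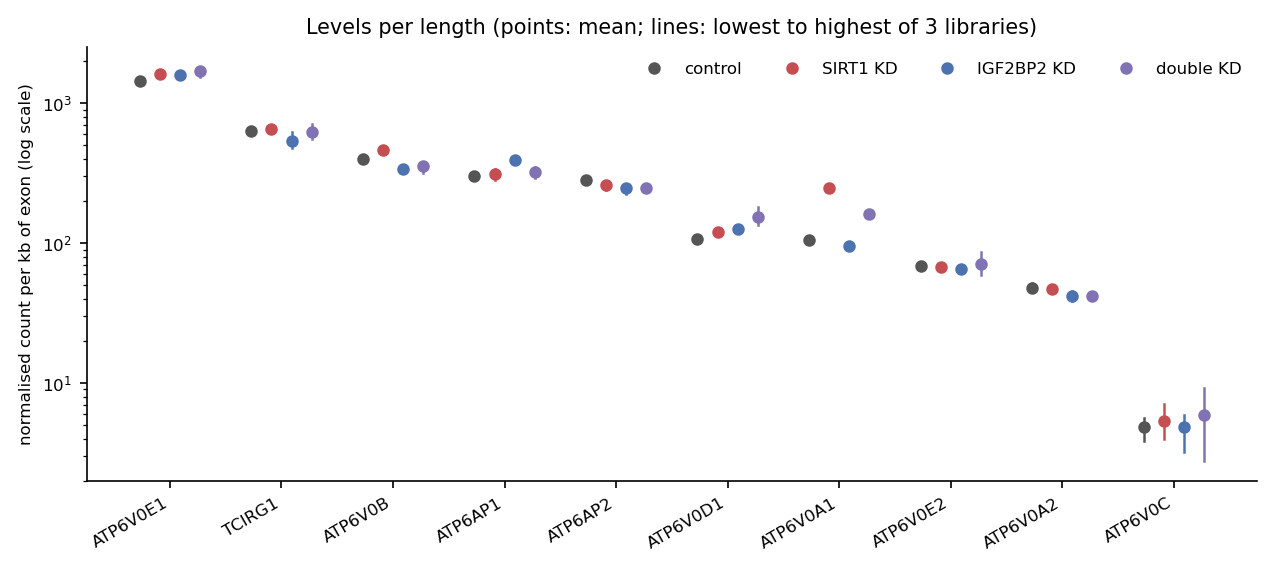
Level of each gene as size-factor-normalised counts per kilobase of exon on a log axis, with points for the mean of 3 libraries and lines from the lowest to the highest library in each of the 4 groups. Genes are ordered by their control mean, from ATP6V0E1 at 1448 per kb to ATP6V0C at 4.86, and the SIRT1 KD and double KD points of ATP6V0A1 sit above its control point.

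The test was limma on log2(normalised count + 1) over all genes, with 9 of the 10 genes in it: ATP6V0C did not pass the filter on low counts. A gene was called at a Benjamini-Hochberg adjusted p under 0.05 over 17576 genes, and adjusted p-values below are from that fit. Against control, 2 of the 9 rose and 0 fell in SIRT1 KD cells (ATP6V0A1 and ATP6V0B), where 12.9% of all tested genes were called higher and 15.7% lower. In IGF2BP2 KD cells 1 rose and 0 fell (ATP6AP1), against 6.86% and 9.39% of all genes. In double KD cells 3 rose and 0 fell (ATP6V0A1, ATP6V0D1 and ATP6V0E1), against 16.7% and 17.5%. In the same 3 comparisons the numbers higher and lower at an unadjusted p under 0.05 were 3 and 0, 2 and 5, and 3 and 2. The share of all genes at an unadjusted p was not counted, here or below, so such counts are not weighed against all genes. With edgeR the adjusted calls were 2 and 0, 1 and 1, and 3 and 1, against 14.2% and 15.9%, 8.07% and 9.81%, and 17.3% and 17.4% of all genes. With DESeq2 they were 2 and 0, 2 and 1, and 3 and 0, against 15.3% and 17.3%, 10.5% and 12.5%, and 18.2% and 17.7% of the genes with an adjusted p. The median log2 fold change of the 9 was 0.05 in SIRT1 KD, -0.14 in IGF2BP2 KD and 0.02 in double KD cells, with medians over all genes of -0.002, -0.004 and 0.006. ATP6V0A1 was called in both groups with the SIRT1 hairpin.

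These counts depended on double KD replicate 2. Without it 4 rose and 0 fell in SIRT1 KD cells (18.4% and 20.4% of all 18112 genes then tested), 2 rose and 5 fell in IGF2BP2 KD cells (12.6% and 15.2%), and 3 rose and 1 fell in double KD cells (19.1% and 20% of all genes). The median of the 9 in double KD cells was then -0.13. With only the groups compared in the fit, 4 rose and 1 fell in SIRT1 KD cells (22.8% and 23.9% of all genes) and 2 rose and 4 fell in IGF2BP2 KD cells (14.0% and 16.4%). In double KD cells 2 then rose and 0 fell (12.5% and 14.2%). The fold changes of the single knockdowns against control are the same in these fits, while the estimate of the spread and the genes tested differ.

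**Figure D2:**
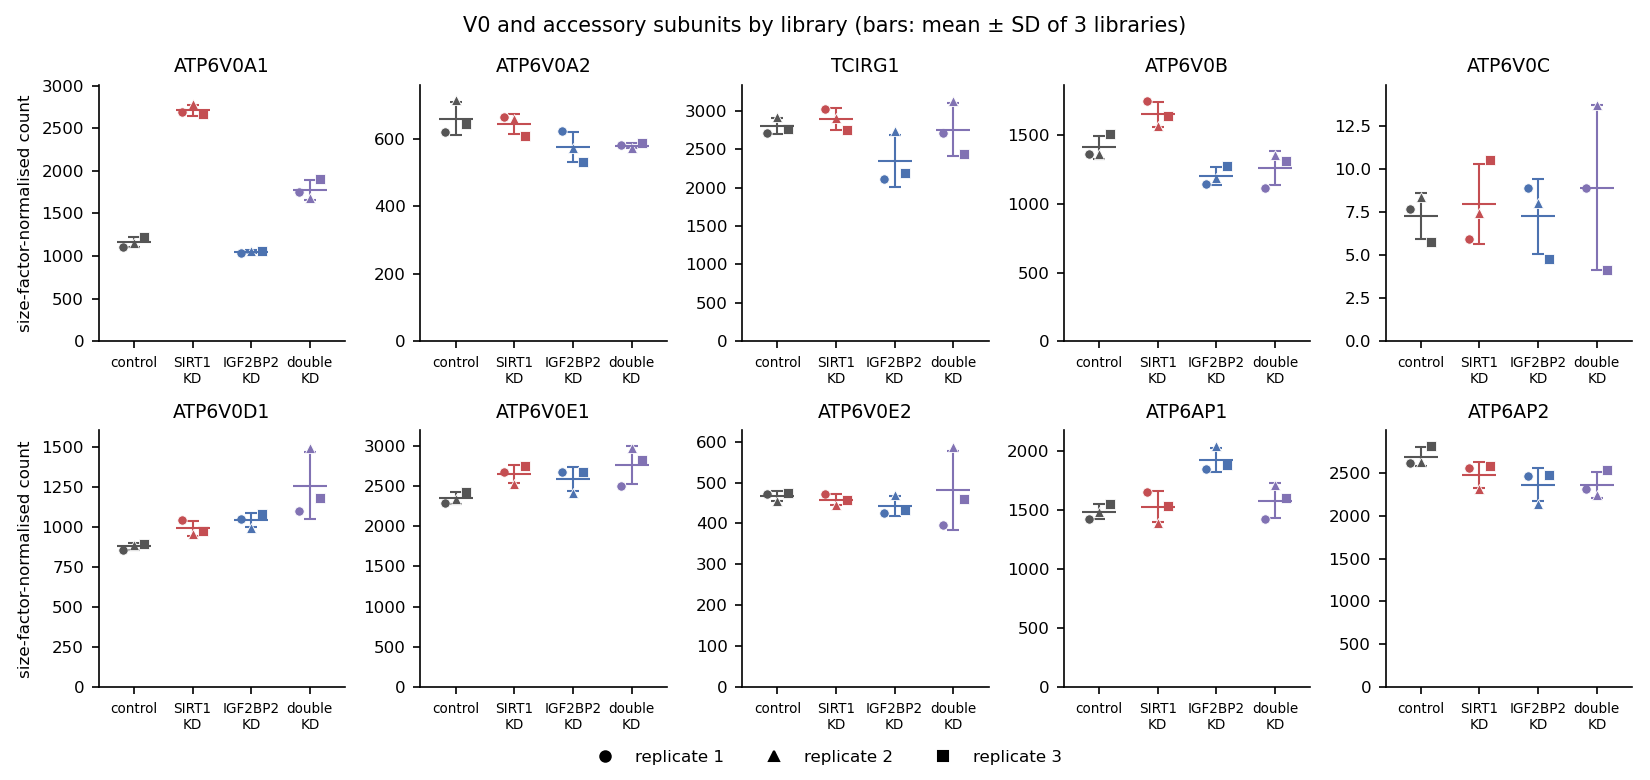
Size-factor-normalised counts of the 10 genes in each of the 12 libraries, one panel per gene with its own axis from 0, symbols for the replicates and bars for the mean ± SD of 3 libraries. The 3 SIRT1 KD libraries of ATP6V0A1 sit at 2660 to 2781, above its control libraries at 1109 to 1220, and double KD replicate 2 is the highest double KD library of 7 of the 10 genes, all but ATP6V0A1, ATP6V0A2 and ATP6AP2.

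Of the a subunits, ATP6V0A1, the isoform best known from neurons and lysosomes, differed most. It was at 1109, 1155 and 1220 normalised counts in control replicates 1 to 3 and at 2688, 2781 and 2660 in SIRT1 KD. All SIRT1 KD libraries thus lay above all control libraries. The mean rose from 1161 ± 55.8 to 2710 ± 63.4 (SD, n = 3), which is 233% of control. On the log2 scale the rise was 1.22 (SE 0.066, 95% interval 1.08 to 1.36, adjusted p = 4.1e-10 in limma). The call held in 20 of 20 alternative fits. In these bulk libraries fewer cells of a type and less RNA per cell cannot be told apart, and a rise has the same limit.

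In double KD cells ATP6V0A1 was at 1748, 1676 and 1902, with a mean of 1775 ± 116. These libraries lay between the other groups with no overlap on either side: above control (0.61 on the log2 scale, SE 0.066, adjusted p = 9.4e-07 in limma) and below SIRT1 KD (-0.61, adjusted p = 2.6e-06). Without double KD replicate 2 the same differences were 0.65 and -0.57. In IGF2BP2 KD cells it was at 1036, 1055 and 1063, all below the lowest control library, and the difference of -0.14 on the log2 scale did not pass the test (95% interval -0.28 to -0.004, adjusted p = 0.160). Without double KD replicate 2 that adjusted p was 0.0494.

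The SIRT1 hairpin was thus followed by a difference of 1.22 on the log2 scale in cells without the IGF2BP2 hairpin and of 0.75 in cells with it (SE 0.066, adjusted p = 1.4e-07 in limma; 0.79 without double KD replicate 2). The interaction term, the second difference less the first, was -0.47 (SE 0.093, 95% interval -0.66 to -0.27, adjusted p = 0.0133). ATP6V0A1 was the gene called of the 9 in this test, 0 higher and 1 lower, where 1.7% of all genes were called higher and 1.16% lower. At an unadjusted p under 0.05 it was 0 and 2. With edgeR and DESeq2 the adjusted calls were 0 and 1 each. The shares higher and lower were 1.88% and 1.44% of all genes in edgeR, and 4.27% and 3.16% of those with an adjusted p in DESeq2. The ATP6V0A1 interaction was -0.43 without double KD replicate 2 (adjusted p = 4.4e-04 in limma), where ATP6AP1 was called too. In that fit 5.86% of all genes were called higher and 3.88% lower. Without control replicate 2 the adjusted p of the ATP6V0A1 interaction was 0.0521.

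ATP6V0A2 (ENSG00000185344.15, chromosome 12, 123712318 to 123761755, plus strand), the isoform of the Golgi and endosomes, showed no call in any of the 7 comparisons with all libraries in the fit. It was at 619, 714 and 644 normalised counts in control, 664, 658 and 609 in SIRT1 KD, 622, 573 and 531 in IGF2BP2 KD and 580, 571 and 585 in double KD cells. Its double KD libraries all lay below its control libraries, a log2 difference of -0.18 (95% interval -0.35 to -0.01, adjusted p = 0.0895 in limma; -0.17 and 0.0740 without double KD replicate 2). The log2 difference in IGF2BP2 KD cells was -0.20 (adjusted p = 0.112; 0.0300 without double KD replicate 2), and the libraries overlapped with control.

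TCIRG1 (ENSG00000110719.10, chromosome 11, 68039016 to 68050895, plus strand), the a3 isoform known for the acid-secreting pump of osteoclasts, was at 2717, 2921 and 2765 in control and 3029, 2910 and 2750 in SIRT1 KD cells, which overlapped. In IGF2BP2 KD cells it was at 2106, 2732 and 2197, where replicate 2 reached into the control range and the other two lay below it. The log2 difference from control was -0.27 (95% interval -0.47 to -0.06, adjusted p = 0.0680), and without IGF2BP2 KD replicate 2 it was -0.38 (adjusted p = 0.00942). It also passed the test without double KD replicate 2 (0.00565) or double KD replicate 3 (0.0468). Double KD libraries were at 2706, 3128 and 2435, and their log2 difference from control was -0.03 (95% interval -0.23 to 0.17, adjusted p = 0.848; -0.13 without replicate 2).

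Per kilobase of exon, the a subunit transcripts of these cells were mostly TCIRG1. These shares depend on the joined exon lengths, 4384 bases for TCIRG1 and 10955 for ATP6V0A1. Before division by length, TCIRG1 and ATP6V0A1 had means of 2801 and 1161 normalised counts in control and 2896 and 2710 in SIRT1 KD cells. Counting ATP6V0A1, ATP6V0A2, TCIRG1 and the kidney-type isoform ATP6V0A4 together, TCIRG1 held 71.6% ± 0.547 in control, 63.5% ± 0.831 in SIRT1 KD, 71.1% ± 3.15 in IGF2BP2 KD and 69.7% ± 4.13 in double KD cells (SD, n = 3; 65.5% and 70.0% without double KD replicate 2). ATP6V0A1 held 11.8%, 11.4% and 12.5% in control, 22.9%, 24.3% and 24.3% in SIRT1 KD, 13.5%, 11.5% and 13.5% in IGF2BP2 KD, and 18.1%, 15.8% and 20.5% in double KD replicates 1 to 3. Its SIRT1 KD and double KD libraries did not overlap with control, while its IGF2BP2 KD libraries did. A 2-sided exact permutation test gave p = 0.1 for SIRT1 KD against control, which is the smallest p that 20 arrangements of 3 against 3 allow. A share falls when another isoform rises, so the lower share of TCIRG1 in SIRT1 KD cells stands beside TCIRG1 counts that overlapped with control. ATP6V0A4 held 11.2% ± 0.0922 in control and 8.14% ± 0.404 in SIRT1 KD cells, at 411 ± 17.6 and 348 ± 15.1 normalised counts.

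**Figure D3:**
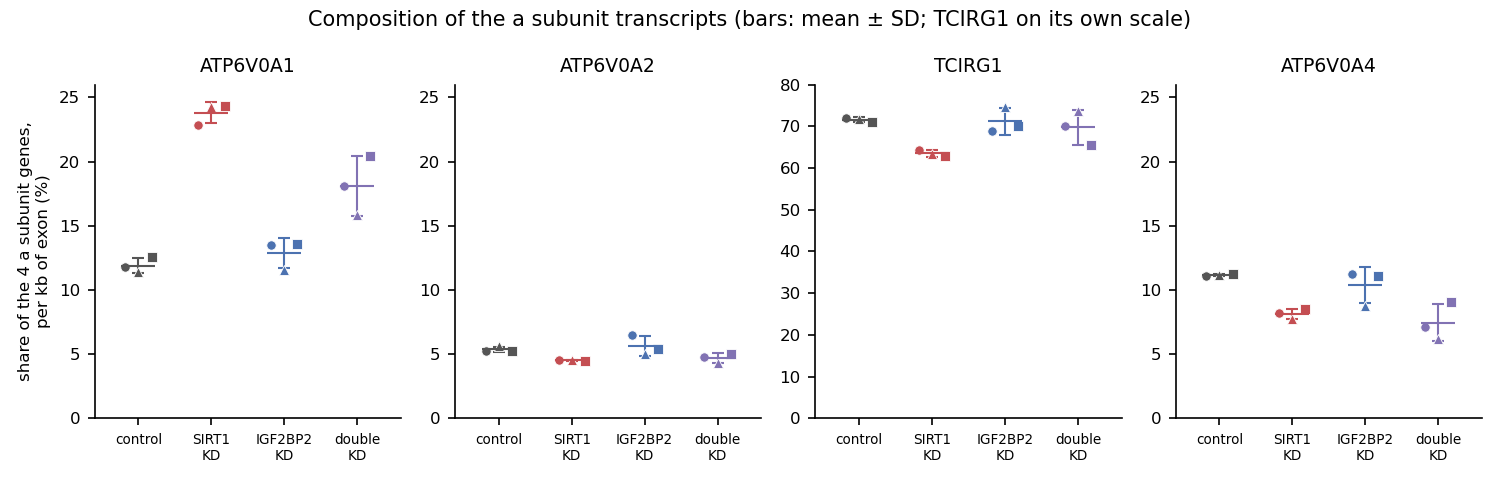
Share of each a subunit gene in the summed normalised counts per kilobase of exon of the 4 a subunit genes, in percent, for the 12 libraries, with symbols for the replicates and bars for the mean ± SD of 3 libraries. ATP6V0A1 goes from a mean of 11.9% in control to 23.8% in SIRT1 KD and 18.1% in double KD libraries.

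In the proteolipid ring, ATP6V0B was at 1363, 1364 and 1508 normalised counts in control and 1748, 1569 and 1636 in SIRT1 KD cells. All SIRT1 KD libraries lay above all control libraries. The rise to 117% of control, 0.23 on the log2 scale (SE 0.080, 95% interval 0.06 to 0.39, adjusted p = 0.0426 in limma), was close to the threshold. It held in 11 of 20 alternatives and was lost without any 1 of 2 control, 3 SIRT1 KD or 3 IGF2BP2 KD libraries, with adjusted p of 0.0504 to 0.176, and with no filter on low values (0.0846).

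In IGF2BP2 KD cells ATP6V0B was at 1142, 1186 and 1272, all below control, with a log2 fold change of -0.23 (adjusted p = 0.0548 in limma, 0.0432 in edgeR and 0.0344 in DESeq2). Double KD libraries were at 1116, 1352 and 1314, also all below control (-0.17, adjusted p = 0.123; -0.22 and 0.00977 without replicate 2). The widest ATP6V0B difference was between the single knockdowns, where SIRT1 KD exceeded IGF2BP2 KD by 0.46 (SE 0.080, adjusted p = 1.6e-04), a call held in 20 of 20 alternatives. Double KD was below SIRT1 KD by a log2 difference of -0.39 (SE 0.080, adjusted p = 0.00157; -0.45 without replicate 2).

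ATP6V0C (ENSG00000185883.12, chromosome 16, 2513870 to 2520218, plus strand), the main proteolipid of the ring, was nearly without reads. It was at 7.66, 8.41 and 5.79 normalised counts in control, 5.96, 7.43 and 10.5 in SIRT1 KD, 8.92, 8.04 and 4.79 in IGF2BP2 KD, and 8.90, 13.7 and 4.12 in double KD cells, with all groups overlapping. It rested on 4 to 10 whole reads per library and did not pass the filter. In the 11 alternative fits that did include it, it was called in 0 of 11 in each of the 7 comparisons, with adjusted p of 0.314 or more. In GENCODE 29 its exons span 1498 bases, and 1080 of these (72.1%) are shared on the same strand with 2 other genes annotated as protein-coding, AC093525.2 and AC093525.1, both of which were at 0 in every library. Of its 50-base stretches 65.7% occur in other genes. The part of this overlap in the low values was not tested, and the ATP6V0C values are given as uncertain.

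ATP6V0D1, the d subunit that joins ring and stalk, was at 853, 886 and 895 normalised counts in control, 1044, 954 and 977 in SIRT1 KD, 1053, 996 and 1083 in IGF2BP2 KD, and 1101, 1495 and 1181 in double KD cells. Every knockdown library lay above every control library. The test called the double KD, at 1259 ± 208 against 878 ± 22.0 in control, by 0.51 on the log2 scale (SE 0.091, 95% interval 0.32 to 0.70, adjusted p = 2.7e-04 in limma). Replicate 2 carried part of that mean, and without it the log2 fold change was 0.38 (adjusted p = 8.4e-06). The single knockdowns, at 0.17 (adjusted p = 0.172) and 0.25 (adjusted p = 0.0727), did not pass the test, and without double KD replicate 2 in the fit both did (0.0173 and 0.00113).

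Double KD cells also held more ATP6V0D1 than SIRT1 KD cells (log2 difference 0.33, SE 0.091, adjusted p = 0.0130; 0.20 and 0.0180 without replicate 2). It did not pass without SIRT1 KD replicate 2 (0.0604) or SIRT1 KD replicate 3 (0.0507) and with only the groups compared (0.0794). Against IGF2BP2 KD the difference was 0.26 (adjusted p = 0.0376), a call that held in 10 of 20 alternatives, and it did not pass without replicate 2, at 0.13 (adjusted p = 0.138). Its interaction term was 0.08 (95% interval -0.19 to 0.36, adjusted p = 0.787), and without double KD replicate 2 it was -0.05 (adjusted p = 0.827). Neither passed the test.

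ATP6V0E1 (ENSG00000113732.9, chromosome 5, 172983757 to 173035445, plus strand) was at 2291, 2331 and 2428 normalised counts in control and 2494, 2967 and 2815 in double KD cells, with no overlap. It rose to 117% of control, by 0.23 on the log2 scale (SE 0.072, 95% interval 0.08 to 0.38, adjusted p = 0.0191 in limma; 0.17 and 0.0245 without replicate 2). That call held in 16 of 20 alternatives and was lost without control replicate 1, control replicate 2 or double KD replicate 3 (0.0549 to 0.0784). It was also lost with only the groups compared. In SIRT1 KD cells it was at 2670, 2525 and 2749, above all control libraries, and the log2 fold change of 0.17 did not pass the test (adjusted p = 0.0837; 0.0125 without double KD replicate 2). IGF2BP2 KD libraries, at 2670, 2415 and 2669, overlapped with control.

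ATP6V0E2 (ENSG00000171130.19, chromosome 7, 149872968 to 149891204, plus strand), its paralogue, was at 454 to 475 in control, 446 to 473 in SIRT1 KD, 425 to 470 in IGF2BP2 KD libraries and 397 to 587 in those of the double KD, all overlapping, with no call. Double KD replicate 2 was its highest library, and its log2 fold change against control was 0.02 with that library and -0.13 without it. Of its exon bases 12.8% lie opposite ATP6V0E2-AS1, at 70.5 to 113 normalised counts, and reads of the pair cannot be told apart because no strand setting was given in the sources used here. Per kilobase, ATP6V0E1 made up 95.3% to 96.3% of the e subunit transcripts over the 12 libraries. This share depends on the length used, all annotated exons joined, at 1623 bases for ATP6V0E1 and 6751 for ATP6V0E2. Before division by length, their control means were 2350 and 467 normalised counts.

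The accessory protein ATP6AP1 (ENSG00000071553.18, chromosome X, 154428632 to 154436516, plus strand) was the gene called in IGF2BP2 KD cells. It was at 1419, 1479 and 1550 normalised counts in control and 1846, 2034 and 1882 in IGF2BP2 KD cells, with no overlap. It rose from 1483 ± 65.4 to 1921 ± 100 (SD, n = 3), 129.5% of control, by 0.37 on the log2 scale (SE 0.080, 95% interval 0.20 to 0.54, adjusted p = 0.00340 in limma), and the call held in 20 of 20 alternatives. In SIRT1 KD cells it was at 1649, 1388 and 1534, overlapping with control (0.04, 95% interval -0.13 to 0.21).

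In double KD cells ATP6AP1 was at 1418, 1710 and 1601, again overlapping with control (0.09, 95% interval -0.08 to 0.25; 0.02 without replicate 2). These libraries all lay below the IGF2BP2 KD libraries, with a log2 difference of -0.29 (SE 0.080, adjusted p = 0.0105; -0.35 and 5.4e-05 without replicate 2). That call was lost without IGF2BP2 KD replicate 2 (adjusted p = 0.0529) and with only the groups compared (0.0502). The interaction was -0.32 (95% interval -0.56 to -0.09, adjusted p = 0.134), and it passed the test without double KD replicate 2, at -0.39 (adjusted p = 0.00415).

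ATP6AP2 (ENSG00000182220.15, chromosome X, 40579372 to 40606848, plus strand) was at 2622, 2625 and 2820 normalised counts in control, 2560, 2307 and 2576 in SIRT1 KD, 2467, 2138 and 2474 in IGF2BP2 KD, and 2309, 2244 and 2535 in double KD cells. All 9 knockdown libraries lay below all 3 control libraries, yet no comparison passed the test. The log2 fold changes were -0.12 (adjusted p = 0.271), -0.19 (adjusted p = 0.0925) and -0.19 (adjusted p = 0.0604; -0.15 and 0.0650 without double KD replicate 2). The call in double KD appeared with edgeR (0.0485) and not with DESeq2 (0.0517). Without double KD replicate 2 the IGF2BP2 KD difference passed the test (0.0119).

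**Figure D4:**
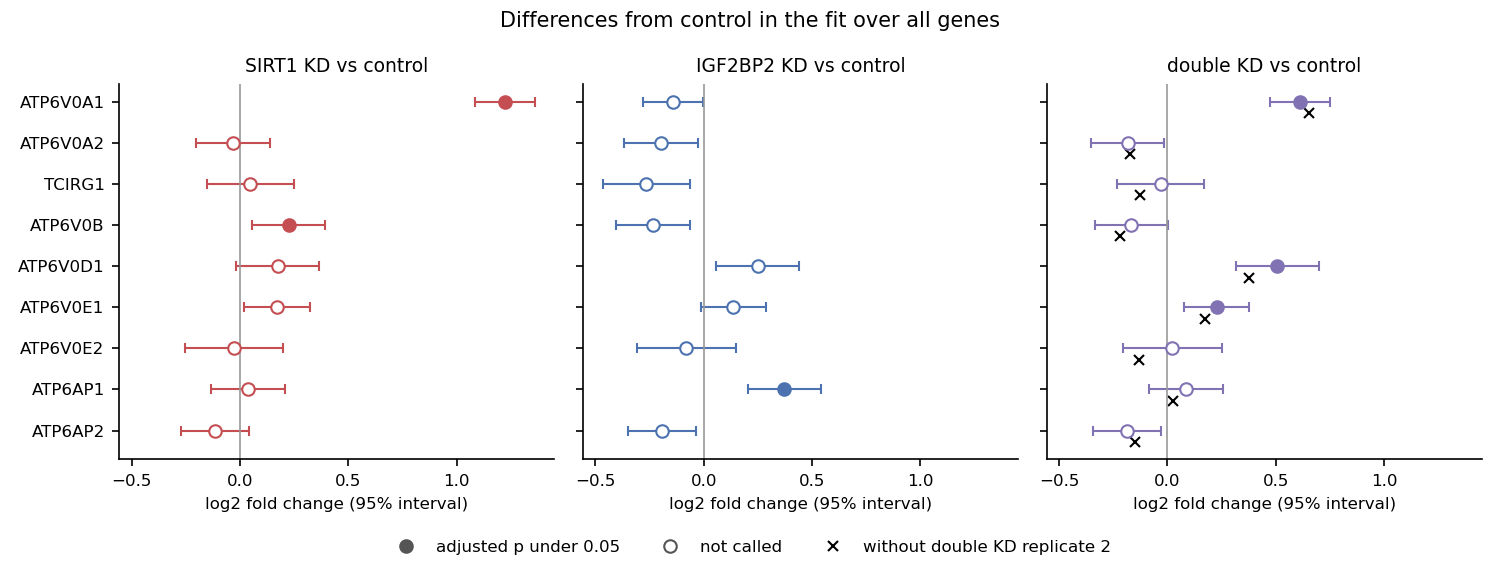
Log2 fold change against control of the 9 tested genes in SIRT1 KD, IGF2BP2 KD and double KD cells, with 95% intervals, filled circles for an adjusted p under 0.05 and crosses for the double KD value without replicate 2. ATP6V0A1 at 1.22 and 0.61, ATP6V0D1 at 0.51 in double KD and ATP6AP1 at 0.37 in IGF2BP2 KD lie farthest from 0.

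The single knockdowns were also set against each other. SIRT1 KD exceeded IGF2BP2 KD for 3 of the 9 genes and was below it for 1, where 19.3% of all genes were called higher and 19.3% lower. The higher genes were ATP6V0A1 (log2 difference 1.37, SE 0.066, adjusted p = 6.0e-11 in limma), ATP6V0B as above, and TCIRG1 (0.31, adjusted p = 0.0146). The last was lost without SIRT1 KD replicate 1, IGF2BP2 KD replicate 1 or IGF2BP2 KD replicate 3 (0.0649 to 0.0888). ATP6AP1 was lower (-0.34, SE 0.080, adjusted p = 0.00270). The 5 others had log2 differences of 0.16 (ATP6V0A2), -0.07 (ATP6V0D1), 0.04 (ATP6V0E1), 0.05 (ATP6V0E2) and 0.07 (ATP6AP2). Double KD against SIRT1 KD gave 1 higher and 2 lower, with 11.9% and 10.7% of all genes, and the same counts without double KD replicate 2 (14.8% and 13.5%). The 6 not called there were ATP6V0A2 (-0.15; -0.14 without that library), TCIRG1 (-0.08; -0.17), ATP6V0E1 (0.06; 0.002), ATP6V0E2 (0.05; -0.10), ATP6AP1 (0.05; -0.01) and ATP6AP2 (-0.07; -0.03). Double KD against IGF2BP2 KD gave 2 higher and 1 lower, with 16.4% and 15.2% of all genes, and 1 higher and 1 lower without that library (18.4% and 17.2%). Not called were ATP6V0A2 (0.01; 0.02 without it), TCIRG1 (0.24; 0.14), ATP6V0B (0.07; 0.01), ATP6V0E1 (0.09; 0.04), ATP6V0E2 (0.10; -0.05) and ATP6AP2 (0.003; 0.04). The interaction terms not given above were 0.05 for ATP6V0A2 (0.06 without it), 0.19 for TCIRG1 (0.09), -0.16 for ATP6V0B (-0.21), -0.08 for ATP6V0E1 (-0.13), 0.13 for ATP6V0E2 (-0.02) and 0.12 for ATP6AP2 (0.16), and did not pass with or without that library.

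The genes whose pattern over the 12 libraries was most like that of each called gene were found by the root-mean-square distance between profiles centred on their mean and scaled to equal size, among 10464 protein-coding genes. For ATP6V0A1 these were AVL9 (distance 0.112), BIRC3 (0.117) and FOXO3 (0.120), with a median distance over all genes of 1.36. BIRC3, an inhibitor of apoptosis, had means of 1427, 3355, 1259 and 2203 normalised counts in control, SIRT1 KD, IGF2BP2 KD and double KD cells. The nearest gene to ATP6V0B was IMPDH2 (0.231), to ATP6V0D1 SDHC (0.194), to ATP6V0E1 the V1 gene ATP6V1H (0.303) and to ATP6AP1 U2AF2 (0.358). The same 3 genes were nearest to ATP6V0A1 without double KD replicate 2 (BIRC3 0.0862, AVL9 0.110, FOXO3 0.119), while the nearest became TMEM120A (0.195) for ATP6V0B, VPS45 (0.227) for ATP6V0D1, USP37 (0.241) for ATP6V0E1 and TBC1D22A (0.218) for ATP6AP1. These distances are descriptions, and the profiles share their libraries.

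The remaining genes of the pathway were counted in lists, against the shares of all genes given above: 12.9% higher and 15.7% lower in SIRT1 KD, 6.86% and 9.39% in IGF2BP2 KD and 16.7% and 17.5% in double KD cells. Of the cytosolic V1 sector 11 of 13 listed genes were tested. In SIRT1 KD cells 3 rose and 3 fell, with a median log2 fold change of 0.16. ATP6V1A, the catalytic subunit, fell by 1.31 (adjusted p = 3.2e-06 in limma), ATP6V1C1 fell by 0.37 and ATP6V1E1 by 0.23, whereas ATP6V1B2 rose by 0.26. The V1 genes called thus went in both directions in the cells where ATP6V0A1 rose. In IGF2BP2 KD cells 2 rose and 0 fell, ATP6V1G1 (0.31) and ATP6V1C1 (0.24), and in double KD cells 5 rose and 2 fell, with and without replicate 2. Among the risers were ATP6V1B2 (0.42; 0.39 without replicate 2), ATP6V1H (0.41; 0.35) and ATP6V1E2 (0.62; 0.52). The fallers were ATP6V1E1 (-0.32, adjusted p = 0.00103; -0.32 without replicate 2) and ATP6V1A (-0.38, adjusted p = 0.0402; -0.57 without replicate 2).

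Further V0 parts were listed too, the tissue-restricted isoforms ATP6V0A4 and ATP6V0D2 with RNASEK and ATP6AP1L, and those called were lower. ATP6V0A4 had a log2 fold change of -0.37 in IGF2BP2 KD (adjusted p = 0.0126 in limma) and of -0.59 in double KD cells (adjusted p = 1.1e-04; -0.52 without replicate 2). ATP6V0D2, the osteoclast-type d subunit, was at 32.6, 23.3 and 16.4 normalised counts in control and 4.45, 5.49 and 8.24 in double KD cells, with no overlap (-1.81, adjusted p = 0.00140; -1.77 without replicate 2). Of the 4 tested, 0, 1 and 2 fell in SIRT1 KD, IGF2BP2 KD and double KD cells and 0 rose. The numbers that fell were 2, 1 and 3 without double KD replicate 2, with RNASEK among them, at -0.41 in SIRT1 KD (adjusted p = 0.0434) and at -0.67 where both hairpins were given (0.00257). In SIRT1 KD 2 were lower at an unadjusted p under 0.05 in limma, while edgeR and DESeq2 called 0.

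Of the 3 factors that assemble V0 in the endoplasmic reticulum, 2 rose in double KD cells, VMA21 (0.30, adjusted p = 0.00881 in limma; 0.36 without replicate 2) and TMEM199 (0.37, adjusted p = 0.0318; 0.39), and 0 were called in either single knockdown by limma, edgeR or DESeq2. At an unadjusted p under 0.05 that was 0 in SIRT1 KD and 1, higher, in IGF2BP2 KD cells. Of 8 tested genes listed as regulators of V1 and V0 assembly (RAVE-like complex and TLDc-domain proteins), 3 rose in SIRT1 KD, 2 in IGF2BP2 KD and 5 in double KD cells, and 1 fell in double KD cells. DMXL1, of the RAVE-like complex, was called higher in all 3 (0.25, 0.55 and 0.56; the last 0.63 without replicate 2). TBC1D24 and MEAK7, with TLDc domains, rose by 0.27 and 0.18 in SIRT1 KD and by 0.36 and 0.48 in double KD cells (0.32 and 0.50 without replicate 2). ROGDI, of the RAVE-like complex, rose by 0.48 in IGF2BP2 KD and 0.77 in double KD cells (0.68 without replicate 2). Without double KD replicate 2 the double KD counts were 6 and 0 for the regulators and 2 and 0 for the assembly factors.

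The Ragulator and Rag proteins, which bind the pump on lysosomes in amino acid sensing, gave 2 higher and 2 lower of 10 in SIRT1 KD, 0 and 0 in IGF2BP2 KD, and 3 and 1 in double KD cells. In IGF2BP2 KD cells 1 was higher at an unadjusted p under 0.05 in limma, and edgeR, DESeq2 and limma without double KD replicate 2 each called 1 higher. RRAGD rose by 0.85 (adjusted p = 6.8e-08) and 0.56 (adjusted p = 6.8e-06) in SIRT1 KD and double KD cells, and SLC38A9, a lysosomal arginine sensor, by 0.75 and 0.62. The double KD rises were 0.59 and 0.80 without replicate 2. RRAGC rose by 0.42 in double KD cells, with and without replicate 2, and LAMTOR5 fell by 0.38 in SIRT1 KD cells. LAMTOR1, the anchor of Ragulator, fell by 0.90 (adjusted p = 1.4e-07) and 0.64 (adjusted p = 5.3e-06; 0.72 without replicate 2). The double KD counts were 4 and 3 without replicate 2.

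Of the MiT/TFE factors 3 of 4 were tested. TFEB was at 368, 327 and 343 normalised counts in control and 253, 237 and 282 in SIRT1 KD cells, with no overlap (log2 fold change -0.43, SE 0.111, adjusted p = 0.00679 in limma), and no other factor was called against control by limma, edgeR or DESeq2. At an unadjusted p under 0.05, 2 were lower in SIRT1 KD, 1 higher and 1 lower in IGF2BP2 KD, and 0 in double KD cells. Without double KD replicate 2, 2 fell in SIRT1 KD cells, and 1 rose and 1 fell in IGF2BP2 KD cells. Of all genes 20.4% were then lower in SIRT1 KD, and 12.6% were higher and 15.2% lower in IGF2BP2 KD cells. Whether these factors bind any of the promoters was not measured.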

How the data were processed

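RNA from 12 libraries, 3 per group, was analysed. Per the submitters' processing notes, CASAVA, STAR, DESeq2 and GRCh38.p13 were used, without versions. Annotation and strand setting were not given in the sources used here. What the authors deposited as the main table is a signal, each library's gene counts over its size factor. All values were whole multiples of 1 step per column (100% within 0.001 reads), so whole reads were recovered for filtering and count tests. The log2 ratios that the authors deposited served to check the column codes: over 9904 genes the same library differed by an SD of at most 1.42e-09, any other by at least 0.0904. The code read as SIRT1 KD was assigned by elimination. A table with 12 unnamed columns was not used. Of 60649 IDs, 60507 had a symbol.

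A filter (filterByExpr of edgeR at 10 reads) left 17576 genes. These were tested on log2(normalised count + 1) with limma 3.58.1 (R 4.3.3; trend and robust, all 12 libraries) and Benjamini-Hochberg adjustment. Fold changes on that scale understate changes of low genes. The interaction is (double KD minus SIRT1 KD) less (IGF2BP2 KD minus control). Alternatives were edgeR 4.0.16, DESeq2 1.42.0, TMM scaling, pseudocounts 0.5 and 8, no filter, only the groups compared, a replicate block, and leaving out each library. The design planned for the replicate numbers had no block. Scripts were tested on simulated data.

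The 10 genes and all lists were chosen with earlier results of these data known. The 9 tested genes are given in every comparison, and of each pathway list up to 4 called genes per comparison with control, by adjusted p. ATP6V1A in double KD cells and RNASEK were named after their values were seen, and shares, levels per kb and profile distances without double KD replicate 2 were added after seeing the data. Several of these comparisons share control libraries. Levels per kb use all GENCODE 29 exons of a gene joined. Counting error limits the precision of low genes such as ATP6V0C.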

Additional observations from a re-analysis of the deposited data

Results flagged for a closer look

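For ATP6V0A1 the difference between SIRT1 KD and control libraries was not the same as the difference between double KD and IGF2BP2 KD libraries. The first was 1.22 on the log2 scale and the second 0.75, and the interaction term of limma was -0.47 (adjusted p = 0.0133 over all genes, n = 3 libraries per group). The sign was the same in 19 of 19 alternative fits, and 18 of them passed the threshold. This difference was set aside for a closer look because the effect of one hairpin was tested to differ between cells with and without the other.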

How the results depend on the processing

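Counts of called genes among the 9 moved with the spread used. ATP6V0C was also in 11 of the alternative fits and was called in 0 of them. In SIRT1 KD against control the count of 2 was 1 with no filter and 5 with only the groups compared. In that last fit 22.8% of all genes were called higher and 23.9% lower, and shares with no filter were not counted. In IGF2BP2 KD against control the count of 1 was 2 with TMM scaling, 2 with edgeR, 3 with DESeq2 and 6 with only the groups compared. All-gene shares, higher and lower, were in that order 7.37% and 9.43%, 8.07% and 9.81%, 10.5% and 12.5%, and 14.0% and 16.4%. In double KD against IGF2BP2 KD the count of 3 was 1 with only the groups compared, where 11% of all genes were called higher and 10.8% lower. Leaving out 1 library gave 1 to 4 (SIRT1 KD against control), 1 to 7 (IGF2BP2 KD against control), 2 to 4 (double KD against control), 2 to 3 (double KD against SIRT1 KD), 2 to 4 (double KD against IGF2BP2 KD), 3 to 4 (SIRT1 KD against IGF2BP2 KD) and 0 to 2 (interaction). The 4 in SIRT1 KD, the 7 in IGF2BP2 KD and the 2 in the interaction came without double KD replicate 2. There the all-gene shares, higher and lower, were 18.4% and 20.4%, 12.6% and 15.2%, and 5.86% and 3.88%. Over the 9 genes, all comparisons and all alternatives, 1181 single-gene results kept their side of the threshold, 38 passed it and 32 lost it. Some differences that did not pass changed sign. ATP6V0E2 in double KD against control, for instance, was at 0.02 and at -0.13 without double KD replicate 2. The interaction was not run with only the groups compared, since it needs all 4.

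The deviations of same-numbered libraries from their group means had 18 correlations of -0.193 to 0.0996, against -0.165 to 0.229 for 36 other pairs. These overlapping ranges cannot exclude an effect shared by libraries of the same number. The numbers were not taken as pairs in the main fit. With the replicate block the IGF2BP2 KD count was 4, and 58 of 63 single-gene results were the same.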
